A study of Mus musculus with 8 samples.

Results

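Hyaluronan synthesis, binding and turnover was followed through 8 genes in the left ventricle of mice: Has1, Has2, Vcan, Acan, Cd44, Tnfaip6, Hyal1 and Hyal2. They were chosen by symbol, and 8 of the 55679 genes in the table are described. RNA-seq had been carried out on wild-type C57BL/6J male mice that carried osmotic mini-pumps under the skin for 7 days. The control group (4 libraries) received saline, and the ANG II group (4 libraries) received 1500 ng/kg/min of angiotensin II, the pressor hormone of the renin system. Both groups shared the genotype, the implanted pump and a heart flushed with saline before the ventricle was taken, and the age of the mice was not given in the sources used here. The question was which genes differ in the ventricle after a hypertensive stimulus. The labels number the libraries without tying each to 1 animal, so p-values measure the spread between these samples.

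Hyaluronan is a long, unsulfated polysaccharide that synthases at the plasma membrane extrude into the extracellular matrix. Proteoglycans such as versican and aggrecan bind along the chain, TSG-6 couples protein heavy chains to it, and CD44 holds it at the cell surface, while hyaluronidases cut it into fragments that lysosomal enzymes finish. In the heart it belongs to the provisional matrix of the developing valves and of injured muscle, where fibroblasts and immune cells bind it.

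The stretches before the RefSeq start sites are shown for the 6 genes that were called higher under ANG II, since these moved in 1 direction. Of the 8 genes, 7 matched the RefSeq promoter table (GRCm38.p6), and Has2 was the gene without an entry. Each stretch is printed 5′ to 3′ on the strand of its gene and was kept free of annotated exons. It covers chr13:89742513-89742662 (minus strand) for Vcan, chr7:79053076-79053225 (plus) for Acan, chr2:52037863-52038008 (plus) for Tnfaip6, chr2:102901666-102901815 (minus) for Cd44, chr9:107576777-107576926 (plus) for Hyal1 and chr9:107568913-107568982 (plus, within the annotated span of the gene) for Hyal2. Capitals mark matches to the motifs searched on both strands, which were the AP-1 motif TGANTCA, the TEAD motif with the letters CATTCC, the SMAD motif with the letters CAGAC, the TATA box with the letters TATAAA, the GC box with the letters GGGCGG, the CArG box and the NF-kB motif.
Vcan: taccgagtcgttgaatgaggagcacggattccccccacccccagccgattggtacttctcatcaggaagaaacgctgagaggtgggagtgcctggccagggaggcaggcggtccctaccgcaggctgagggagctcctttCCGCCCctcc
Acan: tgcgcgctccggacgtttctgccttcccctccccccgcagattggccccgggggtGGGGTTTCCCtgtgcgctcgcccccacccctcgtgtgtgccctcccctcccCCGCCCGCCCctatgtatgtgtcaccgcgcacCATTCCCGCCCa
Tnfaip6: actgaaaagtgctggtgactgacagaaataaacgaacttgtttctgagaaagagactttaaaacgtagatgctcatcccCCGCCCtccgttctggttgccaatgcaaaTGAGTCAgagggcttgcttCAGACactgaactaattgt
Cd44: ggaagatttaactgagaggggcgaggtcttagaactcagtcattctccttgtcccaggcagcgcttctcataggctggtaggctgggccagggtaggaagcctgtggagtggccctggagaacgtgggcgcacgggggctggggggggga
Hyal1: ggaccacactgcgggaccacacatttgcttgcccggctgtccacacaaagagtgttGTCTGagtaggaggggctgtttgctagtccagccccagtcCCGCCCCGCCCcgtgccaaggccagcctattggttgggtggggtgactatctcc
Hyal2: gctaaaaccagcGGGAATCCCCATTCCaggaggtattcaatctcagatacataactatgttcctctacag

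Over the 250 bases before the start site, Tnfaip6 was the 1 gene of the 7 with an AP-1 match, at positions -142 to -136, a motif found in 6.75% of the 32851 promoter windows of the same length. The GC box was held by 5 of the 7 genes (Vcan, Acan, Tnfaip6, Hyal1 and Hyal2) and by 32.7% of all windows. TEAD matches were found in 3 genes (Acan, Tnfaip6 and Hyal2) against 12.6% of all windows, SMAD matches in 3 (Tnfaip6, Hyal1 and Has1) against 42.2%, and NF-kB matches in 2 (Acan and Hyal2) against 7.25%. The TATA box (12.4% of all windows) and the CArG box (1.47%) had 0 matches among the 7 genes. The AP-1 and NF-kB motifs allow more than 1 letter at some positions, and each match was found on both strands at the same place. The Acan GC boxes overlap each other or the TEAD match, and the Hyal1 GC boxes (-77 to -72 and -72 to -67) overlap each other by 1 base. The Hyal2 TEAD match overlaps the NF-kB match by 1 base. The Cd44 window held none of the 7 motifs. The 250 bases were not cut at annotated exons and are longer than the printed stretches, so some matches counted lie outside these. Among them are the Tnfaip6 TEAD match (-8 to -3), the Hyal2 GC box (-47 to -42) and a Vcan GC box (-219 to -214). A match is a description of letters, not of binding.

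Values are FPKM (fragments scaled by transcript length and by library depth), and a fold change is the difference of mean log2(FPKM + 1), which understates the change of low genes. Called genes are those with an adjusted p-value under 0.05 from limma and a log2 fold change beyond 0.5 in either direction. The libraries held 14455692 to 16564855 fragments, as recovered from the steps of the FPKM values. Of 19364 genes tested, 2708 were called higher and 273 lower, so that 90.8% of the calls were higher, and the median log2 fold change of all genes was 0.15. Scaling by the median of ratios put that median at 0.0040 and the share of higher calls at 67.5%, so the change of each of the 8 genes is also given after subtracting 0.15. The pseudocount damps a shift of scale at low genes, so this subtraction takes off more there than the median of ratios (Has2 -0.07 against 0.01). At abundant genes it takes off less (Hyal2 0.42 against 0.35). Mitochondrially encoded genes took 26.3 to 27.0% of the control fragments and 19.2 to 21.8% of the ANG II fragments. Summed markers of cardiomyocytes, the main muscle cells of the ventricle, were at 41594 to 42518 FPKM in control against 30432 to 33352 FPKM in ANG II.

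All 8 genes passed the filter of a mean of 0.1 FPKM, and 6 were called higher under ANG II (Vcan, Acan, Tnfaip6, Cd44, Hyal1 and Hyal2), against 14.0% of all genes tested. None of the 8 was called lower, against 1.41% of all genes. At each of the same 6, all 4 ANG II libraries lay above all 4 control libraries, which held for 28.7% of all genes tested (exact two-sided permutation test, p = 0.0286 each, the smallest that 4 against 4 allows). With the median of ratios and with quantile normalization the groups lay apart in this direction at 5 of the 8, without Hyal1, against 15.3% and 12.9% of all genes tested. With the median of ratios, 3 of the 8 (Vcan, Tnfaip6 and Cd44) were called higher, against 8.63% of all genes. The same 3 were called with quantile normalization (7.30% of all genes) and without mitochondrial and top 10 genes (10.2%), and the same 6 as above with voom on the recovered fragments (18.9%) and with a pseudocount of 0.1 (17.7%). In bulk tissue, fewer cells of a type and less RNA per cell cannot be told apart.

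**Figure D1:**
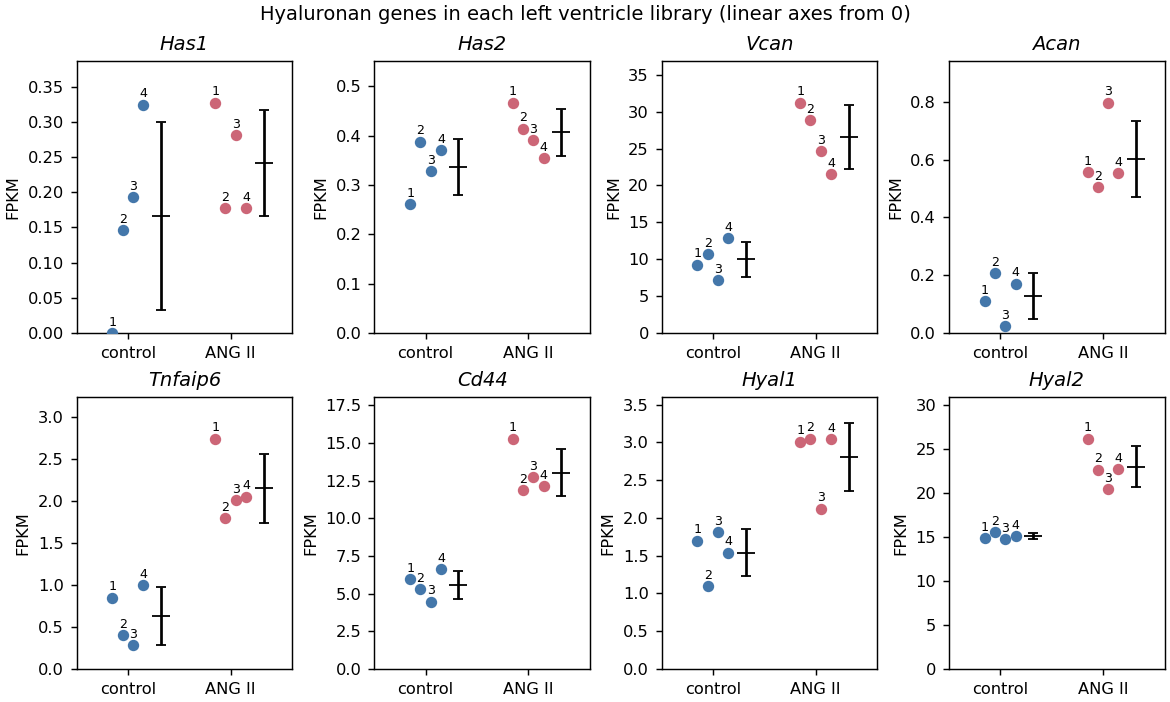
FPKM of the 8 genes in each library (points, numbered by replicate; vertical axes linear from 0), with the mean and SD of each group of 4 libraries as a bar. The groups overlap for Has1 and Has2 and lie apart for the other 6, where every ANG II point is above every control point.

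The synthases were the genes without a detectable difference. Has1 (ENSMUSG00000003665, chr17:17843323-17855205, minus strand) and Has2 (ENSMUSG00000022367, chr15:56665627-56694539, minus strand) encode membrane enzymes that polymerise hyaluronan from UDP-sugars. Has2, the main synthase of the embryonic heart, was at 0.261, 0.388, 0.328 and 0.370 FPKM in control 1 to 4 and at 0.467, 0.414, 0.390 and 0.355 FPKM in ANG II 1 to 4. The ANG II 1 to 3 libraries were the highest of the 8, and ANG II 4 lay among the controls, so the groups overlapped. Its mean was 0.337 ± 0.0564 FPKM (SD, n = 4) in control against 0.407 ± 0.0472 FPKM (SD, n = 4) in ANG II, with a log2 fold change of 0.07 (SE 0.0837, 95% interval -0.11 to 0.26, limma adjusted p = 0.539). These values rested on 16 to 30 fragments a library. With limma voom on the recovered fragments, a scale without the pseudocount, the fold of Has2 had a 95% interval of 0.836 to 1.74. The log2 fold change of Has2 was 0.01 with the median of ratios and turned under quantile normalization (-0.05). Less the median of all genes it was -0.07, a subtraction that is too large for so low a gene.

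Has1 was at 0, 0.146, 0.193 and 0.325 FPKM in control and at 0.328, 0.178, 0.282 and 0.178 FPKM in ANG II. Control 1 had 0 fragments, which allows up to 0.0736 FPKM (3 fragments), while control 3 and control 4 lay within the range of the ANG II libraries, and the groups overlapped. The log2 fold change was 0.10 (SE 0.105, 95% interval -0.14 to 0.33, limma adjusted p = 0.523) on at most 14 fragments a library. It was 0.06 with the median of ratios, and -0.05 less the median of all genes. On the voom scale the interval of the log2 fold change of Has1 ran from -0.49 to 2.78, which does not exclude a change of several fold. Has3, the remaining synthase, was at 0.712 ± 0.207 FPKM (SD, n = 4) in control against 0.528 ± 0.0470 FPKM (SD, n = 4) in ANG II (log2 fold change -0.16, limma adjusted p = 0.322). The summed level of the 3 synthases was 1.08 to 1.36 FPKM in either group. Counting error alone is covered by the floor of 3 fragments, as the labels name no molecular identifiers.

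The opposite-strand RNA Has2os covers 4.30% of the exon length of Has2, and the use of strand in counting was not given in the sources used here. Has2os was at 0.698 ± 0.284 FPKM (SD, n = 4) in control against 0.466 ± 0.201 FPKM (SD, n = 4) in ANG II and was not called (log2 fold change -0.21, limma adjusted p = 0.315). It was named for this overlap and not by the rule for named genes.

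Vcan had the largest log2 fold change of the 8 genes on this scale and encodes versican, a large chondroitin sulfate proteoglycan whose head binds hyaluronan. Vcan (ENSMUSG00000021614, chr13:89655312-89742509, minus strand) was at 9.26, 10.7, 7.18 and 12.9 FPKM in control 1 to 4 and at 31.3, 28.9, 24.7 and 21.6 FPKM in ANG II 1 to 4. The lowest ANG II library was above the highest control library, and the groups did not overlap. The mean rose 2.66-fold, from 10.003 ± 2.39 to 26.6 ± 4.32 FPKM (SD, n = 4 each), and the log2 fold change was 1.34 (SE 0.163, 95% interval 0.97 to 1.70, limma adjusted p = 0.000245). Less the median of all genes, the change of Vcan was 1.19, and it ranked 370 of 19364 genes by log2 fold change. The level rested on 462 to 1841 fragments a library. Versican has 9 annotated transcripts of 294 to 12427 bases, and the FPKM used their mean length of 3885 bases, so isoforms were not told apart.

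Acan encodes aggrecan, the hyaluronan-binding proteoglycan of cartilage, which is also found in valves and around the large vessels. Acan (ENSMUSG00000030607, chr7:79053483-79115099, plus strand) was at 0.111, 0.206, 0.0243 and 0.171 FPKM in control and at 0.557, 0.504, 0.798 and 0.553 FPKM in ANG II, on 2 to 15 and 40 to 60 fragments. Control 3 was the lowest library and ANG II 3 the highest, and the groups did not overlap. The means were 0.128 ± 0.0796 and 0.603 ± 0.132 FPKM (SD, n = 4 each), and the log2 fold change was 0.51 (SE 0.0983, 95% interval 0.29 to 0.73, limma adjusted p = 0.00334), or 0.36 less the median of all genes. On the voom scale, where low values are not damped by the pseudocount, the log2 fold change of Acan was 2.51 (95% interval 1.49 to 3.52, adjusted p = 0.00105).

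The call of Acan stood just above the fold threshold. It fell under it with the median of ratios (0.45), with quantile normalization (0.39), without mitochondrial and top 10 genes (0.47), and without control 1 (0.50), control 3 (0.46) or ANG II 3 (0.45), although the adjusted p-value stayed under 0.05 in each. Summed markers of the atria, a neighbouring tissue, were likewise lowest in control 3 and highest in ANG II 3, as were Myl7, Myl4 and Sln singly, while Nppa was lowest in control 3 but at 109 FPKM in ANG II 3, its lowest ANG II library. The summed level (Myl7, Myl4, Sln and Nppa) was 7.72 to 58.5 FPKM in control against 195 to 339 FPKM in ANG II. Nppa alone was at 8.61 ± 1.86 FPKM in control against 140.9 ± 22.9 FPKM in ANG II (SD, n = 4 each). The study lists atrial natriuretic peptide, which Nppa encodes, among genes activated in cardiomyocytes, so the sum does not mark atrial tissue alone. Sln and Nppa were the 2 of the 4 called higher, and Myl7 ran from 0.205 FPKM in control 3 to 89.6 FPKM in ANG II 3. Without both of these libraries the log2 fold change of Acan was 0.40 (limma adjusted p = 0.0174). Control 3 was also the lowest library for Vcan, Tnfaip6, Cd44 and the summed fibroblast markers, and ANG II 3 the highest for the summed macrophage markers. The part of atrial tissue or of these libraries in the result was not tested. Of 7 cartilage and valve markers, 4 were tested and 0 called higher or lower, their summed level overlapped (9.46 to 23.9 FPKM in control, 12.6 to 17.9 FPKM in ANG II), Matn1 was listed at 0 in all but ANG II 3, and Snorc in all but control 2.

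Around these proteoglycans, 5 of the 8 hyaluronan-binding proteoglycan and link protein genes were tested. Vcan and Acan were the 2 called, both higher, against 14.0% of all genes tested. The link protein gene Hapln1, whose product clamps proteoglycans to the chain, was at 0.151 ± 0.124 FPKM (SD, n = 4) in control against 0.358 ± 0.0557 FPKM (SD, n = 4) in ANG II and was not called (log2 fold change 0.24, limma adjusted p = 0.087), but was with voom on the recovered fragments (log2 fold change 1.66, adjusted p = 0.0322). The 21 tested genes that build and modify chondroitin sulfate chains had a median log2 fold change of 0.45 against 0.15 for all genes. Of the 21, 0 were called lower and 10 were called higher, against 14.0% of all genes tested. The called genes included Xylt1, which starts the chain (1.14 ± 0.188 to 3.09 ± 0.472 FPKM), Chsy1 and Chpf, which extend it (log2 fold changes 0.85 and 1.12), and Chst12, which sulfates it (0.98). Dse and Dsel, whose products convert chondroitin into dermatan sulfate, rose as well, Dse from 7.68 ± 0.694 to 21.8 ± 2.38 FPKM (SD, n = 4 each, log2 fold change 1.39, limma adjusted p = 1.03e-05). The other called genes of this list were Xylt2, Csgalnact1, Chpf2 and Chst11. The call of Xylt2 was lost with the median of ratios and that of Xylt2, Csgalnact1 and Chst11 with quantile normalization. There 7 of the 21 were called, against 7.30% of all genes called higher. Xylt2 (log2 fold change 0.50) also fell under the fold threshold without control 3 (0.49), control 4 (0.43), ANG II 3 (0.44) or ANG II 4 (0.49), and without mitochondrial and top 10 genes (0.37). Fam20b, a kinase of the linkage region, was at 33.7 ± 2.00 FPKM in control against 33.4 ± 1.02 FPKM in ANG II (SD, n = 4 each).

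Among 7 proteases that cleave versican and aggrecan, Adamts4 and Adamts8 were called higher and 0 lower, against 14.0% and 1.41% of all genes tested. Adamts4 was at 0.943 ± 0.244 FPKM in control against 3.67 ± 1.17 FPKM in ANG II (SD, n = 4 each, log2 fold change 1.24, limma adjusted p = 0.000958). Adamts8 was at 0.389 ± 0.216 and 2.02 ± 0.510 FPKM (log2 fold change 1.12, limma adjusted p = 0.000551). Adamts1, the most abundant of the 7, did not pass the fold threshold (log2 fold change 0.39, limma adjusted p = 0.0128).

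Tnfaip6 encodes TSG-6, a secreted protein induced in inflammation that transfers heavy chains onto hyaluronan. Tnfaip6 (ENSMUSG00000053475, chr2:52038009-52056686, plus strand, 1 transcript) was at 0.850, 0.400, 0.282 and 0.994 FPKM in control and at 2.74, 1.80, 2.01 and 2.05 FPKM in ANG II. Control 2 and 3 were the lowest libraries, and the highest control, control 4, was below the lowest ANG II library, and the groups did not overlap. The means were 0.632 ± 0.344 and 2.15 ± 0.409 FPKM (SD, n = 4 each), and the log2 fold change was 0.96 (SE 0.165, 95% interval 0.60 to 1.33, limma adjusted p = 0.00165) on 8 to 71 fragments a library. Less the median of all genes it was 0.82, and on the voom scale the log2 fold change of Tnfaip6 was 1.90.

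Of 5 tested partners of TSG-6, 3 were called higher, against 14.0% of all genes tested. With Tnfaip6 itself, of the 6 tested genes of this list (8 in the table), 4 were called higher (Tnfaip6, Itih2, Itih5 and Ptx3) and 0 lower, with a median log2 fold change of 0.93. Itih2 and Itih5 encode heavy chains of the inter-alpha-trypsin inhibitor family, and Itih5 was at 2.40 ± 0.780 FPKM in control against 6.16 ± 1.38 FPKM in ANG II (SD, n = 4 each, log2 fold change 1.08, limma adjusted p = 0.00236). Itih2 was at 0.490 ± 0.186 and 1.78 ± 0.477 FPKM (log2 fold change 0.89, limma adjusted p = 0.00123). Ptx3, a pentraxin that binds TSG-6 and the heavy chains, was at 0.625 ± 0.266 and 2.49 ± 0.883 FPKM (log2 fold change 1.08, limma adjusted p = 0.00219). Itih4, at 0.904 ± 0.569 and 1.68 ± 0.265 FPKM, was not called (log2 fold change 0.53, limma adjusted p = 0.0508), but was without control 4 (0.72, adjusted p = 0.00289), with a pseudocount of 0.1 (0.95, adjusted p = 0.0449), among genes of at least 1 FPKM (adjusted p = 0.0422) and with voom (1.03, adjusted p = 0.0161).

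Cd44 encodes the main cell-surface receptor for hyaluronan, carried by leukocytes and many stromal cells. Cd44 (ENSMUSG00000005087, chr2:102811141-102901665, minus strand) was at 5.94, 5.30, 4.47 and 6.62 FPKM in control and at 15.3, 11.9, 12.7 and 12.1 FPKM in ANG II. ANG II 1 was the highest library and control 3 the lowest, and the groups did not overlap. The mean rose 2.33-fold, from 5.58 ± 0.918 to 13.0 ± 1.56 FPKM (SD, n = 4 each), and the log2 fold change was 1.09 (SE 0.117, 95% interval 0.83 to 1.36, limma adjusted p = 0.000127) on 207 to 647 fragments a library. Less the median of all genes, the change was 0.95. Cd44 has 9 annotated transcripts of 1305 to 5614 bases, among which the table does not distinguish.

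Of the 6 hyaluronan receptor genes, 4 were called higher (Cd44, Hmmr, Stab1 and Layn) and 0 lower, against 14.0% and 1.41% of all genes tested. The median log2 fold change of the 6 was 0.95. Stab1, a scavenger receptor of macrophages and some endothelia, was at 47.3 ± 2.55 FPKM in control against 83.3 ± 5.21 FPKM in ANG II (SD, n = 4 each, log2 fold change 0.80, limma adjusted p = 1.85e-05). Layn, the receptor layilin, was at 4.01 ± 0.718 and 9.91 ± 1.03 FPKM (log2 fold change 1.13). Hmmr, which also works at the mitotic spindle of dividing cells, had the largest change of the list (0.693 ± 0.419 to 4.30 ± 1.76 FPKM, log2 fold change 1.61, limma adjusted p = 0.00178). Lyve1, the receptor of lymphatic vessels and some resident macrophages, was at 16.4 ± 2.29 and 17.0 ± 2.23 FPKM, groups that overlapped (log2 fold change 0.05, 95% interval -0.21 to 0.30, limma adjusted p = 0.791), and its direction turned under the median of ratios (-0.17), quantile normalization (-0.19) and removal of mitochondrial and top 10 genes (-0.09). Summed lymphatic markers were at 38.5 to 42.8 FPKM in control against 52.2 to 63.5 FPKM in ANG II, with 2 of 5 called higher, but Prox1 went the other way, lower in every ANG II library (19.4 ± 2.33 to 14.5 ± 2.02 FPKM, log2 fold change -0.40, limma adjusted p = 0.0206). Of the 3 linkers that tie CD44 to the cytoskeleton, Msn (moesin) was called higher (101.1 ± 5.13 to 183.8 ± 18.02 FPKM, log2 fold change 0.85) and 0 lower. Rdx (radixin) had a log2 fold change of 0.16, which turned under the median of ratios (-0.07) and quantile normalization (-0.01). Ezr (ezrin) was not called but was lower in every ANG II library (32.6 ± 5.34 against 26.8 ± 1.39 FPKM, log2 fold change -0.26, limma adjusted p = 0.0683).

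Hyal2 and Hyal1 encode the hyaluronidases of somatic tissue, the first anchored at the cell surface and the second lysosomal. Hyal2 (ENSMUSG00000010047, chr9:107567945-107572779, plus strand) was at 14.9, 15.5, 14.8 and 15.1 FPKM in control and at 26.1, 22.6, 20.4 and 22.7 FPKM in ANG II. The 4 controls lay within 14.8 to 15.5 FPKM, all ANG II libraries were higher, and ANG II 1 was the highest. The mean rose 1.52-fold, from 15.1 ± 0.322 to 23.0 ± 2.36 FPKM (SD, n = 4 each), and the log2 fold change was 0.57 (SE 0.0739, 95% interval 0.41 to 0.74, limma adjusted p = 0.000341). Less the median of all genes, the change of Hyal2 was 0.42. It fell under the fold threshold with the median of ratios (0.35, adjusted p = 0.00464), quantile normalization (0.34) and removal of mitochondrial and top 10 genes (0.43).

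Hyal1 (ENSMUSG00000010051, chr9:107576927-107581710, plus strand) was at 1.70, 1.10, 1.82 and 1.54 FPKM in control and at 3.01, 3.05, 2.12 and 3.04 FPKM in ANG II. ANG II 3 stood below the other ANG II libraries but above control 3, the highest control, so the groups did not overlap as deposited. With the median of ratios the lowest ANG II value of Hyal1 (1.98) lay below its highest control value (2.002), and the groups overlapped, as they did with quantile normalization. The mean rose 1.82-fold, from 1.54 ± 0.314 to 2.81 ± 0.456 FPKM (SD, n = 4 each), and the log2 fold change was 0.58 (SE 0.135, 95% interval 0.28 to 0.89, limma adjusted p = 0.00809, and 0.44 less the median of all genes) on 32 to 97 fragments a library. The call of Hyal1 was lost with the median of ratios (0.43, adjusted p = 0.0387), quantile normalization (0.29, adjusted p = 0.162), removal of mitochondrial and top 10 genes (0.49), and without control 2 (0.50). Its counting is uncertain, because 51.9% of its exon length is shared on the same strand with Hyal3 and Naa80 (named Nat6 in the table). Nat6 was at 5.29 ± 0.378 and 6.67 ± 0.825 FPKM (SD, n = 4 each) and was not called (log2 fold change 0.28, limma adjusted p = 0.0479), and Hyal3 had 0 to 4 fragments a library and was not tested. These neighbours were named for the overlap and not by the rule for named genes.

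All 7 tested genes of hyaluronan degradation were called higher, Hyal1, Hyal2, Cemip and Tmem2 among them, against 14.0% of all genes tested. The table held 12 genes of this list, and the median log2 fold change of the 7 tested was 0.77. With the median of ratios 4 of the 7 were called higher, against 8.63% of all genes, and Hyal1, Hyal2 and Tmem2 lost the call. Cemip, which depolymerises hyaluronan outside the lysosome, was at 0.0483, 0, 0.0141 and 0.107 FPKM in control and at 1.61, 1.39, 0.847 and 1.08 FPKM in ANG II. It was near 0 in all controls and its groups did not overlap (log2 fold change 1.09, limma adjusted p = 0.000152). With a pseudocount of 0.1 the log2 fold change of Cemip was 3.25, and with voom 5.22, on few control fragments. Tmem2, its transmembrane relative, was at 4.29 ± 0.417 and 6.97 ± 0.765 FPKM (SD, n = 4 each, log2 fold change 0.59). Lysosomal exoglycosidases, which also degrade other glycans, had higher levels than Cemip and Tmem2: Gusb was at 14.5 ± 1.81 and 26.6 ± 1.28 FPKM (log2 fold change 0.84), and Hexa at 23.6 ± 1.21 and 41.0 ± 1.00 FPKM (0.77). At the start of the pathway, 1 of 7 genes that supply UDP-sugars was called, a share near the 14.0% of all genes, and this was Pgm3 of the hexosamine route (2.14 ± 0.518 to 3.53 ± 0.619 FPKM, log2 fold change 0.54, limma adjusted p = 0.0227). Its call was lost with the median of ratios (0.37, adjusted p = 0.112), quantile normalization (0.22) and removal of mitochondrial and top 10 genes (0.43), and without control 2 (0.41), ANG II 1 (0.46), ANG II 2 (0.54, adjusted p = 0.0525) or ANG II 3 (0.53, adjusted p = 0.0532). Ugp2, the most abundant of the 7, was at 279.9 ± 44.99 and 277.5 ± 35.9 FPKM.

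**Figure D2:**
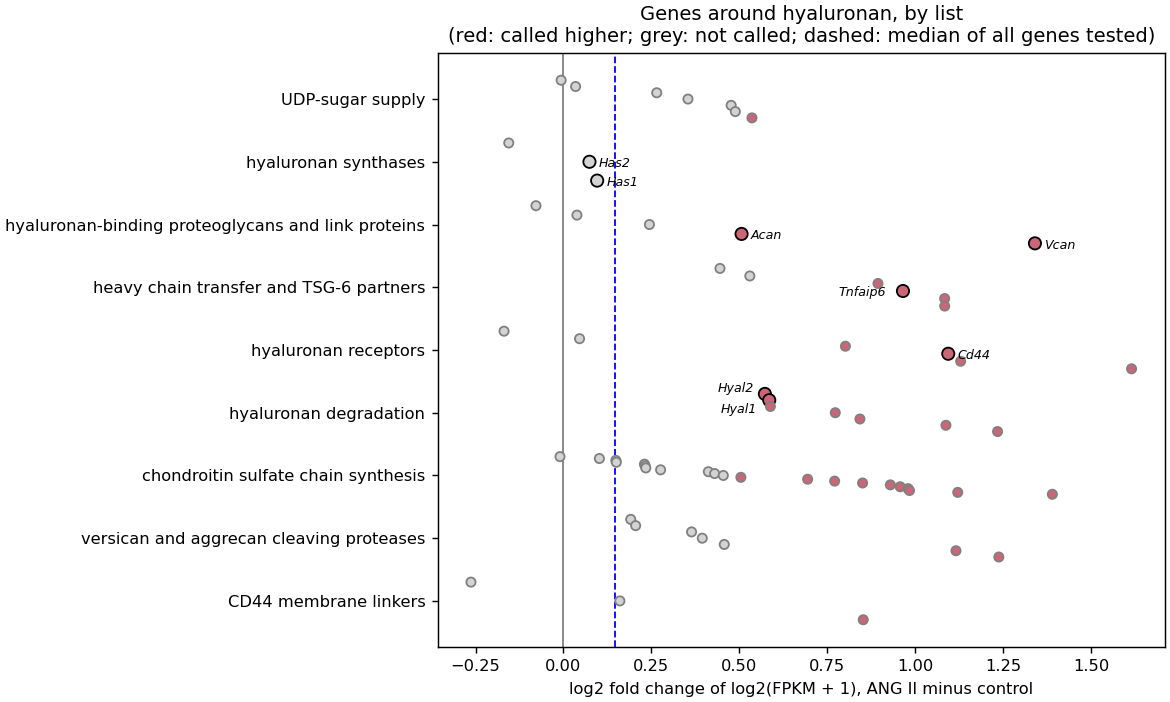
Log2 fold changes of log2(FPKM + 1), ANG II minus control, for the 65 tested genes of 9 lists around hyaluronan (1 point a gene, red where called higher, grey where not called, black outline and name for the 8 genes described). The dashed line marks the median of all genes tested (0.15), and the degradation list is the 1 list in which every tested gene was called.

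Over the 9 lists together, 65 of 76 genes were tested and 31 were called higher and 0 lower, with a median log2 fold change of 0.49, beside 14.0% of all genes tested called higher and their median of 0.15. Without the 8 genes, 25 of 57 were called higher, with a median of 0.46. The lists stood at 25 calls under the median of ratios, where 8.63% of all genes were called higher, and 23 under quantile normalization, where 7.30% were. No test of a list against other genes was made.

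**Figure D3:**
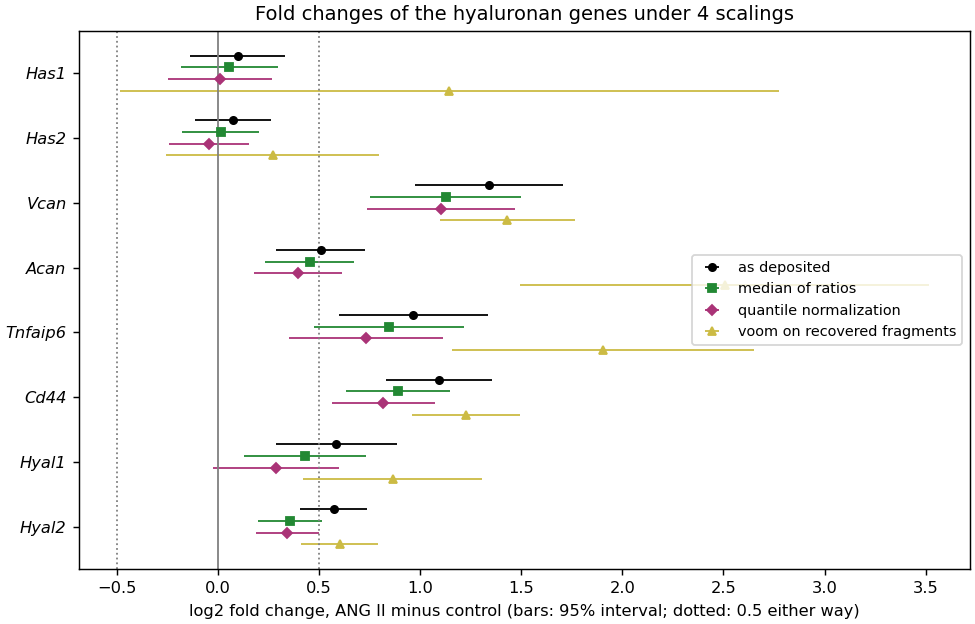
Log2 fold change (ANG II minus control) of the 8 genes with its 95% interval, for FPKM as deposited, after the median of ratios, after quantile normalization, and for limma voom on recovered fragments, which is on a scale without the pseudocount of 1. The dotted lines mark 0.5 in either direction, which Vcan, Tnfaip6 and Cd44 exceed on all 4 scalings, and the voom estimates of the low genes Acan and Tnfaip6 are the farthest from their other estimates among the called genes.

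Levels were compared between genes per length, in FPKM. In control the order was Hyal2, Vcan, Cd44, Hyal1, Tnfaip6, Has2, Has1 and Acan, and the ranges of neighbours overlapped from Tnfaip6 downwards. In ANG II the order was Vcan, Hyal2, Cd44, Hyal1, Tnfaip6, Acan, Has2 and Has1, where Vcan overlapped with Hyal2 and Hyal1 with Tnfaip6. The order depends on the length used: with the longest annotated transcript the mean of Vcan was 3.13 FPKM in control against 8.32 FPKM in ANG II, below Hyal2 at 7.13 and 10.9 FPKM. In ANG II, Tnfaip6 (2.15 FPKM) then stood above Hyal1 (1.86 FPKM). The ANG II ranges then overlapped between Hyal2 and Vcan, Vcan and Cd44, Tnfaip6 and Hyal1, and Acan and Has2.

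Sums over a few genes are given as a description, with no test between them. The summed level of the 3 synthases overlapped between the groups, as given above, on the low depth of Has1 and Has2. The summed hyaluronidases Hyal1 and Hyal2 were at 16.6 to 16.7 FPKM in control against 22.5 to 29.1 FPKM in ANG II. Cemip with Tmem2 summed to 3.90 to 4.75 FPKM and 6.72 to 8.94 FPKM, and Hexa with Gusb to 36.0 to 41.3 FPKM and 65.4 to 69.6 FPKM. The level of Hyal1 and Hyal2 over that of the 3 synthases was 12.2 to 15.4 in control and 19.9 to 23.7 in ANG II, a ratio of transcripts and not of enzyme activity.

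Markers of other cells moved with these genes. For comparison, 14.0% of all genes tested were called higher and 1.41% lower. Of 8 fibroblast markers 7 were called higher, and their summed level was 421 to 596 FPKM in control against 1822 to 2066 FPKM in ANG II. All 8 macrophage markers were called higher (179 to 217 and 432 to 585 FPKM), as were 4 of 5 tested neutrophil markers (2.57 to 6.79 and 8.72 to 22.0 FPKM) and 2 of 6 T cell markers, whose sums overlapped. All 5 erythroid markers were called higher (96.8 to 487 and 581 to 2083 FPKM). Mesothelial markers had 0 of 6 called and overlapped (6.30 to 8.21 and 6.05 to 9.31 FPKM), endothelial (367 to 422 and 415 to 496 FPKM) and smooth muscle markers (114 to 185 and 121 to 145 FPKM) had 1 called higher each, and 2 of 7 cardiomyocyte markers were called lower. The part of these cells in the levels of the hyaluronan genes was not tested.

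Ratios to single marker genes are given as a description. Cd44 over Csf1r, a macrophage receptor gene, was 0.187 to 0.256 in control and 0.193 to 0.242 in ANG II, ranges that overlapped. Vcan over the fibroblast receptor gene Pdgfra overlapped as well (0.423 to 0.714 and 0.597 to 1.16), and Vcan over Cd44 did too (1.56 to 2.02 and 1.78 to 2.43). Cd44 over Pdgfra was 0.243 to 0.368 in control and 0.336 to 0.565 in ANG II (means 0.291 and 0.424), ranges that also overlapped. Vcan over the collagen gene Col1a1 was lower in every ANG II library (0.128 to 0.174 and 0.0397 to 0.0468), while Vcan over the proteoglycan gene Dcn was higher in every one (0.0295 to 0.0410 and 0.0436 to 0.0687). The partners Csf1r, Pdgfra, Dcn and Col1a1 were chosen after their values were seen.

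**Figure D4:**
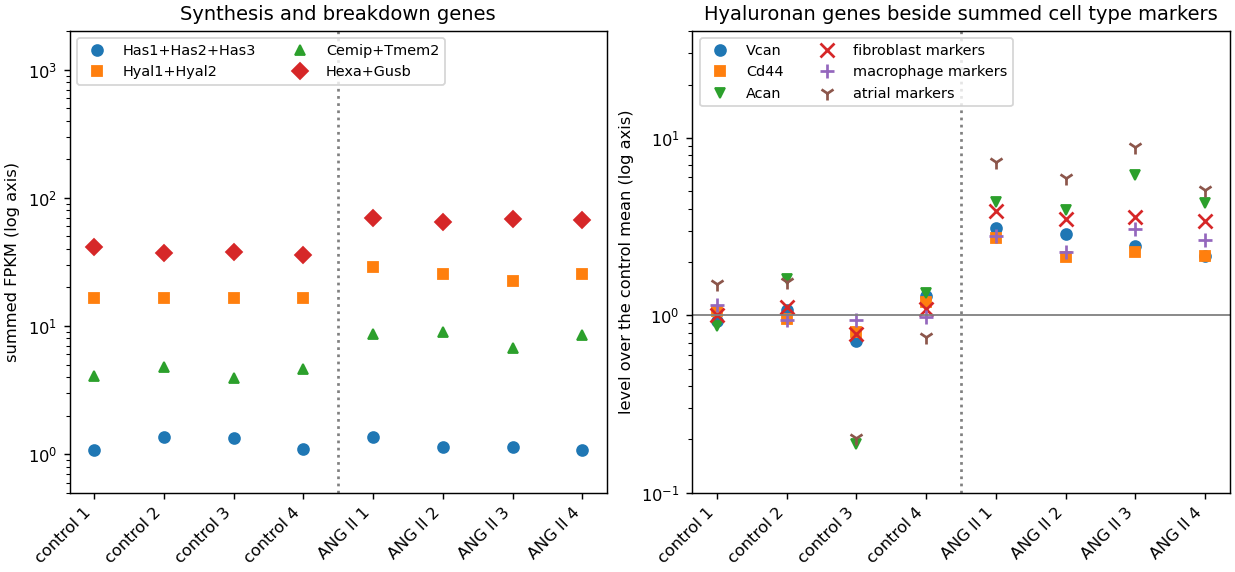
Left, summed FPKM of synthesis and breakdown genes in each of the 8 libraries (log axis), where the synthases stay between 1.08 and 1.36 FPKM and the other 3 sums are higher in every ANG II library. Right, Vcan, Cd44, Acan and summed fibroblast, macrophage and atrial markers in each library over their own control mean (log axis), where Acan and the atrial sum are both lowest in control 3 and highest in ANG II 3. Vcan, Cd44 and the fibroblast sum are also lowest in control 3, and the macrophage sum is also highest in ANG II 3.

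The genes most like each abundant member in pattern were named by Pearson's r of log2(FPKM + 1) over the 8 libraries among 12947 genes that averaged 1 FPKM or more. The libraries fall into 2 groups, which any gene that differs between them shares, and no p-value is given. For Vcan they were Ttc9 (0.994), Kdelc2 (0.992) and Lpar1 (0.991), and for Cd44 Ints3 (0.996), Ptpn12 (0.995) and Mapk11 (0.994). For Tnfaip6 they were Tspan14 (0.991), Arcn1 (0.991) and Eif1a (0.988). Those of Hyal1 were Luzp1 (0.993), Per2 (0.988) and Baz1b (0.988), and those of Hyal2 were Sept8 (0.996), Igsf10 (0.995) and Slc1a4 (0.995). Has1, Has2 and Acan averaged under 1 FPKM and were not matched.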

How the data were processed

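RNA-seq of left ventricles was analysed in 4 control and 4 ANG II libraries, grouped by their treatment labels. The study describes more samples a group than the 4 analysed here, and the labels' extraction text speaks of CRC cells although tissue is given as left ventricle. Per the labels, libraries were made from poly(A) RNA. The authors deposited 1 table of FPKM values with 1 column a library, and 0 sample columns were left unused. The submitters' processing notes name HISAT, Bowtie2 and RSEM. The genome build, annotation and use of strand are not given in the sources used here. Positions are those of GENCODE M21 (GRCm38), which holds 55141 of the 55679 genes. FPKM times the mean M21 transcript length fell on whole multiples of 1 step a library (within 0.1, under 60 fragments) for 99.1 to 99.3% of values of genes with 1 transcript and 97.5 to 97.9% with several, which gave the fragments behind each value.

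The study names limma. Groups were compared with limma 3.58.1 in R 4.3.3 (linear fit, trended eBayes) on log2(FPKM + 1), with all 8 libraries and no covariate. Genes that averaged 0.1 FPKM or more were tested, with Benjamini-Hochberg adjustment over all 19364 genes. The fit was also run on counts simulated at a single dispersion (0.05) without a shift of scale between groups. Of 200 genes changed 3-fold there, 126 were called in the right direction, beside 5 false calls. With 0 genes changed, 5 were called. Each of the 8 genes was also put through a two-sided exact permutation test with all 70 allocations. Alternatives changed the pseudocount (0.1), filter, scaling, variance trend, fold threshold, replicate block or libraries, or used voom on the recovered fragments. Leaving out control 3 and ANG II 3 together was chosen after seeing the data. Python 3.11.15, pandas 2.3.3, numpy 2.4.6, scipy 1.17.1 and matplotlib 3.10.9 were used.

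The genes described, the pathway lists and the marker lists were chosen with earlier results of these data known. The text names the 8 genes, the called genes of each pathway list and the uncalled one with the highest mean. Up to 3 uncalled genes were allowed, and Ezr was added for its direction. Marker genes are named too, and the 3 genes most like each member with a mean of at least 1 FPKM, passing over names that hold only an identifier. A symbol that a spreadsheet had turned into a date was restored to Sept8 by its gene ID. Promoters came from RefSeq. A gene that the rule picks is not reported here singly, and counts over its list keep it.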

Additional observations from a re-analysis of the deposited data

Results flagged for a closer look

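In 4 of the 82 groups of 4 libraries tested over 41 named genes, 1 library lay far from the other 3 (Dixon's test at 95%), and chance gives about 1 in 20. Hyal1 was at 2.12 FPKM in ANG II 3, below the other ANG II libraries. Has3 was at 0.402 FPKM in control 4, below the other controls, and Itih4 was at 1.75 FPKM in control 4, above them. Chst12 was at 2.07 FPKM in control 3, below the other controls.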

How the results depend on the processing

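Vcan, Tnfaip6 and Cd44 were called higher under every alternative with a log2 fold threshold of 0.5. The number of the 8 genes called was 3 with the median of ratios, 3 with quantile normalization, 3 without mitochondrial and top 10 genes, and 2 (Vcan and Cd44) at a log2 fold change above 1, and 5 to 6 with each library left out. With a mean of at least 1 FPKM, Has1, Has2 and Acan were not tested. Genes called numbered 2981, 6447 without a fold threshold, 795 above a log2 fold change of 1, and 2722 to 3078 with each library left out. Pathway list calls numbered 31, 42 with voom, 38 with a pseudocount of 0.1, 25 with the median of ratios, 23 with quantile normalization, 12 above a log2 fold change of 1, and 29 to 33 with each library left out. Genes of the 8 whose groups lay apart numbered 6, 5 with the median of ratios or quantile normalization (Hyal1 lost), and 6 to 7 with each library left out. Of the alternatives for the named called genes, 521 kept the call, 35 lost it and 0 turned it. Among the uncalled genes named, Hapln1 gained a call with voom and Itih4 under 4 alternatives. Directions of uncalled genes turned for Has2 (-0.0451, quantile normalization), Ugp2 (-0.126 to 0.0805 with each library left out, 0.109 without control 3 and ANG II 3), Lyve1 (-0.171 median of ratios, -0.19 quantile normalization, -0.0935 without mitochondrial and top 10 genes, -0.037 to 0.107 with each library left out, -0.0831 without control 3 and ANG II 3), Fam20b (-0.0381 to 0.0274 with each library left out, 0.0441 without control 3 and ANG II 3) and Rdx (-0.0656 median of ratios, -0.0143 quantile normalization). The causes were not tested. With the replicate number as a block, 2968 genes, 6 of the 8 and 31 pathway list genes were called, and the number marked no pairing: same-number deviations correlated at -0.04 to 0.09, and 1 of 4 samples correlated best with its own number. Low depth limits Has1, Has2 and Acan, at 0 to 60 fragments a library.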
